A study of Mus musculus with 3 samples.

Results

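Melanocyte-marker nuclei of dorsal mouse skin were compared between anagen, the growth phase of the hair cycle, and telogen, its resting phase. They were chosen by their own signal: a nucleus was taken when at least 3 open features lay in the windows of 9 pigment-cell genes (Mlana, Tyrp1, Tyr, Pax3, Kit, Slc45a2, Gpr143, Sox10 and Mitf, each gene body with 2 kb on both sides) and when its share of open features there was at least 1.5 times that of all nuclei pooled. The rule found 76 of 2042 telogen nuclei and 683 of 3753 anagen nuclei, which is 759 of the 5795 telogen and anagen nuclei and of the 12348 nuclei in the series. Open chromatin was read nucleus by nucleus with ATAC-seq, where a transposase inserts adapters into accessible DNA. All mice carried Dct-rtTA and Tre-H2B-GFP, so that doxycycline puts a histone-GFP label on cells that use the Dct promoter, and GFP-positive nuclei were sorted. Telogen skin came from 12 mice given doxycycline in drinking water for 5 days. Anagen skin came from 8 mice whose hair cycle had been started by chemical depilation and which then had 5 days of the same water. The labels give an age of 7 weeks in one field and 8 weeks in another. Each condition was 1 pool of mice, so differences cannot be set against a spread between mice, and every interval is a 95% interval for counting error only. The sort itself rests on a Dct promoter in a transgene, whose extent is not given in the sources used here. In anagen, hair cycle phase cannot be told apart from depilation.

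Melanocytes make melanin in melanosomes, organelles related to lysosomes, and pass them to the keratinocytes of the growing hair. The lineage is built by the transcription factors MITF, SOX10 and PAX3, and the enzymes tyrosinase, TYRP1 and DCT carry out melanin synthesis. In the hair follicle, pigment cells are renewed from melanocyte stem cells, which rest in telogen and give differentiating, pigment-making cells in anagen under Wnt, KIT and melanocortin signals. Chromatin is open at the starts of most active genes in every cell type, while features inside genes and between genes are more often open in one cell type alone.

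A nucleus with any count in a 500-bp feature was taken as 1 open call there, and levels are given in CPM, open calls per 1000000 calls outside the windows of the 9 marker genes. The selected nuclei held 89689 such calls in telogen and 2256692 in anagen, a 25.2-fold difference. One telogen call was therefore worth 11.1 CPM, and the floor of 3 calls used where telogen was at 0 was worth 33.4 CPM. Depth per nucleus differed too: selected telogen nuclei had a median of 1011.5 open features (368 to 4263) and selected anagen nuclei 2253 (312 to 15916), against medians of 933.5 and 897 over all nuclei. Marker features per selected nucleus had a median of 4 in telogen and 8 in anagen, with 34 telogen and 89 anagen nuclei at exactly 3. The lowest shares taken were 1.56 times the pooled share in telogen and 1.50 times in anagen, and the highest shares left out among nuclei with 3 marker features were 1.44 and 1.49 times. No barcode was shared between the conditions. Nuclei carry a tag number that the labels do not explain (1 to 10 in telogen, 1 to 8 in anagen), and 33 of the 76 telogen nuclei had tag number 10 and 320 of the 683 anagen nuclei tag number 5.

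The starts of some of the genes named below are shown here as the 250 bases before the start of the gene, from RefSeq (GRCm38.p6), on the strand of the gene. Capitals mark CATGTG, the core of the M-box to which MITF binds, or TGANTCA, the AP-1 site, on either strand, and TGACGTCA, the CRE site, was searched as well. Dct (chr14:118052247-118052496, minus strand), Oca2 (chr7:56239509-56239758, plus), Slc24a5 (chr2:125067877-125068126, plus) and Mc1r (chr8:123406832-123407081, plus) are pigment-cell genes. The start features of Oca2, Slc24a5 and Mc1r were not called, with 51, 55 and 63 anagen calls and no telogen call. Jun (chr4:95052223-95052472, minus) and Atf3 (chr1:191183334-191183583, minus) are early response genes whose start features were lower in anagen.
Dct: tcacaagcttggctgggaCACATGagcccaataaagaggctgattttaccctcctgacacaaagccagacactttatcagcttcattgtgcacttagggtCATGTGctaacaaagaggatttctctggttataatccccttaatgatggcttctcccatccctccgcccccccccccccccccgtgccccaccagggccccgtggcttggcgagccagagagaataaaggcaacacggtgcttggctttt
Oca2: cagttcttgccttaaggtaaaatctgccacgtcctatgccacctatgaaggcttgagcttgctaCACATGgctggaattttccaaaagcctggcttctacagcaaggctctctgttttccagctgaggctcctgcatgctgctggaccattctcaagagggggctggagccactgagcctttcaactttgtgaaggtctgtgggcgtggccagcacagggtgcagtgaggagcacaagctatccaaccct
Slc24a5: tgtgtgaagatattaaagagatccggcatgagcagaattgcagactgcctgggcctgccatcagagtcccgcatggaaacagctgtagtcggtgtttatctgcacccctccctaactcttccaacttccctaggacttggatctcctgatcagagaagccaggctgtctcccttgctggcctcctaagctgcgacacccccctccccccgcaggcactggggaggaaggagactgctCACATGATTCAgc
Mc1r: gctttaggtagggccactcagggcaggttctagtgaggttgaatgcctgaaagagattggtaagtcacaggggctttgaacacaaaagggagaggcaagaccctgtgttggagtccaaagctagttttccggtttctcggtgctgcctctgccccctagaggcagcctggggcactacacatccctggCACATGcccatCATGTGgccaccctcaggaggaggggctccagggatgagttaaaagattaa
Jun: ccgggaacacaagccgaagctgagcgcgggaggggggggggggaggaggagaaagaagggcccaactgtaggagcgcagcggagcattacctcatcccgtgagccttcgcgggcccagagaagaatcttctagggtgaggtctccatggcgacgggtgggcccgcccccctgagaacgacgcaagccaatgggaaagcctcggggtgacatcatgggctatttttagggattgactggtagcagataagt
Atf3: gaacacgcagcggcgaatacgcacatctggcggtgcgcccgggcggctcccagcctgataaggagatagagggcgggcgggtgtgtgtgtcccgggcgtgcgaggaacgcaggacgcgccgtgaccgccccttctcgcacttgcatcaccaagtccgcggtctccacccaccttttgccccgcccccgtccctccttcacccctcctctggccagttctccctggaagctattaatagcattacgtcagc

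Dct held 2 CATGTG matches, with first bases 232 and 150 bases before the start, Mc1r held 2 (62 and 51 bases) and Oca2 held 1 (186 bases). In Slc24a5 a CATGTG match 13 bases before the start overlapped a TGANTCA match at 9 bases. The Jun and Atf3 windows held none of the 3 motifs, which says only that these letters are not in these 250 bases. Among all 32851 gene-start windows of the table, 12.25% held CATGTG, 6.75% TGANTCA and 1.55% TGACGTCA. Among the 5605 tested features that lie on such a window (over at least 0.5 of it), the shares were 6.44%, 3.55% and 3.57%. For the 478 of these features that were lower in anagen they were 5.44%, 3.14% and 3.77%, and for the 5127 others 6.53%, 3.59% and 3.55%. The motif content of gene starts that were lower in anagen was therefore close to that of the other open gene starts.

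Pigment genes that had no part in the marker rule were read first, as a check of the label. Among them Dct is not independent of the sort, which rests on its promoter in a transgene. Dct, the dopachrome tautomerase of melanin synthesis, stood at 669 CPM in selected telogen nuclei against 85.1 in the other telogen nuclei, and at 740.0 against 175 in anagen. At least 1 Dct call was found in 41 of 76 selected telogen nuclei (53.9%) and in 9.92% of the other telogen nuclei, and in 561 of 683 (82.1%) and 13.6% in anagen. Pmel, the melanosome fibre protein, stood at 334 against 178 CPM in telogen and at 398 against 196 in anagen. Of its calls in the selected nuclei, 91.4% lay in features shared with another gene. The 16 pigment and melanosome genes outside the selection summed to 2163 CPM in selected and 959 in other telogen nuclei. Of these genes, Mcoln3 (234 against 45.4), Rab38 (201 against 52.2) and Gpnmb (55.7 against 21.5) were among those with more in the selected nuclei. Tpcn2 (78.0 against 91.2) and Mfsd12 (33.4 against 86.6) were among those with less. The melanosome transport genes Sytl2 (245 against 57.6) and Myo5a (245 against 79.1) also had more. Others, from the same list and from the lineage regulators below, were near the level of the other nuclei or below it. Trpm1, a melanocyte ion channel, stood at 134 CPM in selected against 104 in other telogen nuclei, Slc24a4 at 55.7 against 43.3, the endothelin receptor Ednrb at 44.6 against 46.1 and the melanocortin receptor Mc1r at 11.1 against 16.5. In the selected nuclei these rest on 12, 5, 4 and 1 calls, with intervals of 69.1 to 234, 18.1 to 130, 12.2 to 114 and 0.28 to 62.1 CPM. Each interval takes in the level of the other nuclei and levels above it. Oca2 and Slc24a5 had no call in the 76 nuclei, which allows a share of up to 3.95% of nuclei with a call by the floor of 3 nuclei and up to 4.74% by the Clopper-Pearson interval. In the other telogen nuclei the shares were 4.37% and 0.66%, so neither gene can be placed below them. In anagen the same genes stood at 851 (Trpm1), 361 (Slc24a4), 136 (Ednrb), 140 (Mc1r), 437 (Oca2) and 108 (Slc24a5) CPM, each above the other anagen nuclei (181, 100.4, 60.05, 33.3, 67.1 and 18.9). Since not all pigment-cell genes of the telogen set could be seen to go with the markers, it is called by its markers here and not by a cell type.

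The telogen set also varied by tag number. Tag numbers 1 to 7 together gave 17 nuclei, 4 of them with a Dct call, at 277 CPM. Tag numbers 8, 9 and 10 gave 9, 17 and 33 nuclei, with Dct at 637, 1319.5 and 620 CPM. In anagen Dct lay between 473 and 883 CPM over the 7 tag numbers with at least 9 nuclei, so that the telogen tag numbers 8 and 10 lay inside the anagen range.

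Of the marker lists of other skin cells, some were lower in the selected than in the other nuclei and some were not. The 10 keratinocyte markers summed to 123 CPM in telogen (0 to 318 over tag numbers 8 to 10) and 78.9 in anagen (66.0 to 140 over tag numbers), against 522 and 241 in other nuclei, with Dsp, Krt1, Krt15, Krt5 and Perp at 0 in telogen. The 9 fibroblast markers summed to 223 (59.98 to 318) and 116 (58.8 to 140), against 436 and 918, with Dcn, Dpt, Lum and Pdgfra at 0 in telogen. The 9 endothelial markers stood at 123 and 126, against 433 and 432, with Cdh5 and Tie1 at 0 in telogen. The lists of Schwann cells (357 and 253, against 327 and 274) and skeletal muscle (234 and 203, against 254 and 245) were nearer to their level in other nuclei. Those of pericytes and smooth muscle (212 and 195, against 234 and 349) and adipocytes (190 and 129, against 210 and 199) were near it in telogen and below it in anagen. Gfra3 and Ncmap of the 8 Schwann markers were at 0 in telogen, and Gfra3 alone in anagen. Myeloid markers stood at 156 and 132 (321 and 144 in other nuclei) and T cell markers at 55.7 and 30.1 (113 and 105). The part of such nuclei in the results below was not tested.

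Open calls of anagen melanocyte-marker nuclei lay more often inside genes, and less often at gene ends and between genes, than those of telogen. Features inside a gene body or within 2 kb of it, but over 1 kb from a gene end, took 45.8% of anagen calls (45.7% to 45.8%) and 33.5% of telogen calls (33.2% to 33.8%). Features within 1 kb of a gene end took 35.2% and 43.5%, and features beyond 2 kb of any protein-coding gene took 19.0% and 22.9%. In the other nuclei the differences were smaller: 36.6% and 34.6% inside genes, 37.96% and 41.4% at gene ends, and 25.5% and 24.0% beyond genes, where the order was the opposite one. Selected and other nuclei thus had much the same make-up in telogen, while in anagen the selected nuclei had more of their calls inside genes than the others.

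Every anagen tag number lay above every telogen tag number in the share inside genes. The 7 anagen tag numbers with at least 9 nuclei lay between 38.9% and 46.8%, and telogen stood at 33.6% (tag numbers 1 to 7 pooled), 33.4%, 32.6% and 33.9% (tag numbers 8, 9 and 10). Anagen tag numbers 7 and 8 were the lowest, at 38.9% and 39.6%, and their shares at gene ends (43.1% and 41.7%) lay inside the telogen range of 39.8% to 45.1%. In anagen the share moved with depth: it was 39.0% in the 56 nuclei with 300 to 800 open features, 41.1%, 43.1% and 45.8% in the next ranges (800 to 1300, 1300 to 2500 and 2500 to 5000) and 47.3% in the 147 nuclei above 5000. In telogen it lay between 32.3% and 34.3% over the 4 ranges up to 5000, the last of which held 4 nuclei. In each of these 4 ranges anagen lay above telogen, from 39.0% against 33.3% in the lowest to 45.8% against 34.2% in the highest.

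**Figure D1:**
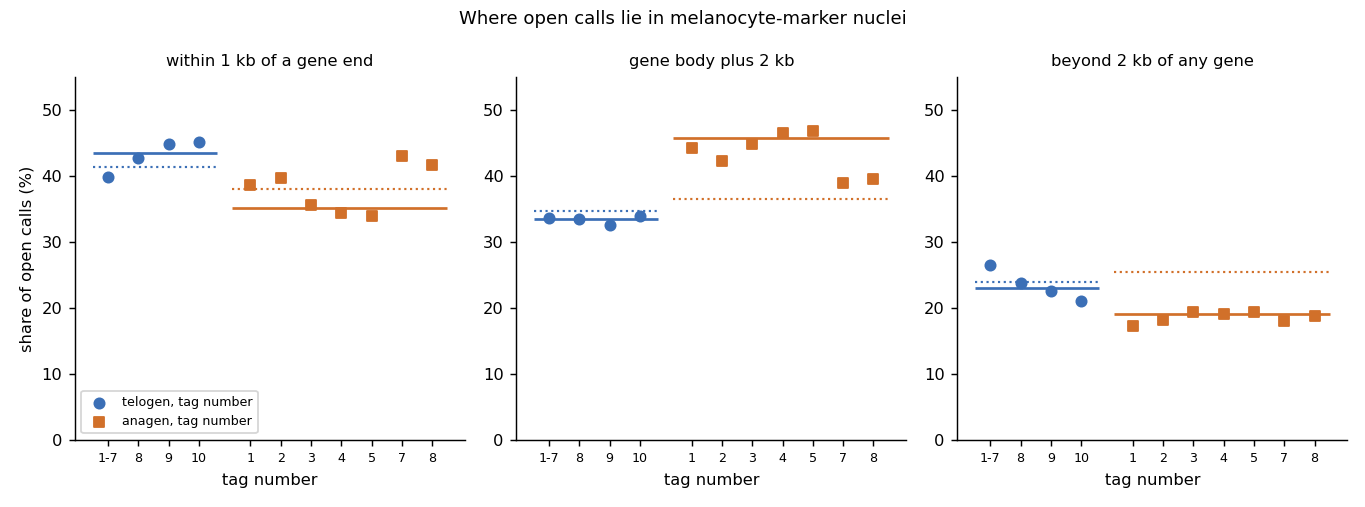
Share of open calls (%) within 1 kb of a gene end, inside a gene body with 2 kb, and beyond 2 kb of any gene, for each tag number of the selected telogen (circles) and anagen (squares) nuclei, tag numbers with fewer than 9 nuclei pooled (telogen 1 to 7) or left out (anagen 6). Solid lines are the selected nuclei pooled and dotted lines the other nuclei of the condition; the squares lie between 38.9% and 46.8% inside genes, all above the circles.

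The excess inside genes was largest in genes of middle length. Anagen over telogen, the share of calls had a ratio of 1.10 (1.06 to 1.13) in genes under 20 kb, 1.36 (1.32 to 1.40) at 20 to 50 kb, 1.52 (1.48 to 1.56) at 50 to 100 kb, 1.43 (1.40 to 1.46) at 100 to 200 kb and 1.33 (1.30 to 1.36) above 200 kb. In other nuclei the ratio went from 0.92 in the shortest genes to 1.22 in the longest. Between genes the ratio went down with distance: it was 1.07 (1.04 to 1.10) within 10 kb of a gene end, 0.86 (0.84 to 0.88) at 10 to 50 kb, 0.71 (0.69 to 0.73) at 50 to 200 kb and 0.62 (0.59 to 0.64) beyond. The other nuclei went the other way, with 0.94, 1.03, 1.18 and 1.18. In melanocyte-marker nuclei the lowest of these 9 ratios was thus that of features farthest from genes, while in other nuclei that ratio was above 1.

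**Figure D2:**
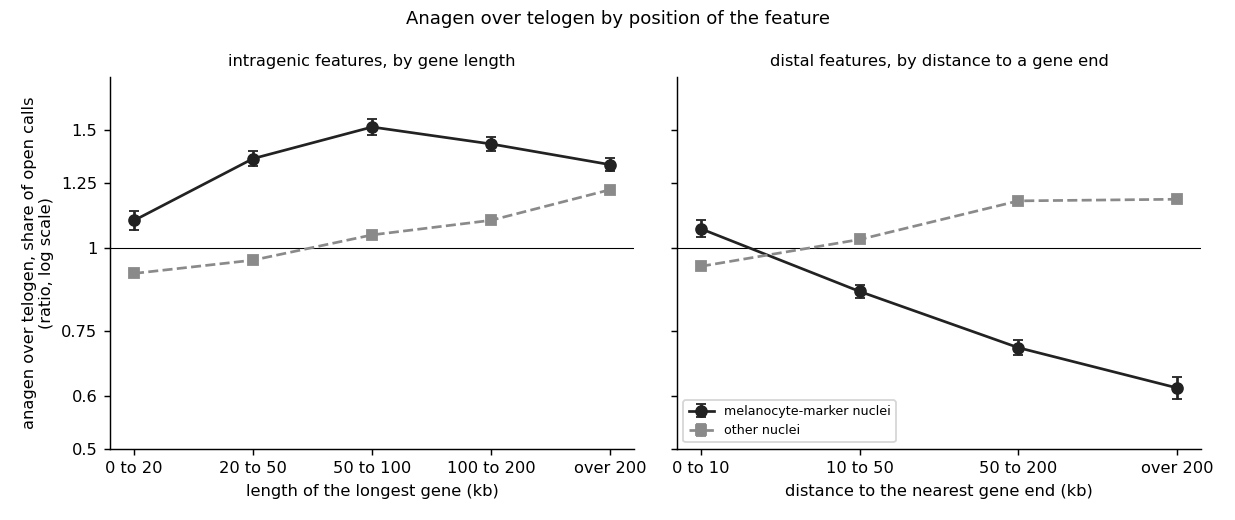
Ratio of the share of open calls, anagen over telogen (log axis), for features inside genes by the length of the longest gene they lie in (left) and for features beyond 2 kb of a gene by distance to the nearest gene end (right). Bars are 95% counting intervals; in the selected nuclei (black) the ratio peaks at 1.52 for genes of 50 to 100 kb and goes down to 0.62 far from genes, while in other nuclei (grey) it goes up with both.

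Over gene bodies with 2 kb, 9601 genes outside the marker list had at least 60 calls in both conditions together. A gene was called when it differed at least 2-fold with its interval off 1: 536 genes were called higher in anagen (5.58%) and 583 lower (6.07%). By the interval alone, 717 genes lay above 1 (7.47%) and 745 below (7.76%). The median log2 ratio of all tested genes was 0.05. The split depends on the scale. With calls at the ends of housekeeping genes as the total, which moves the median by 0.18, 822 were higher and 324 lower. With a scale of its own for gene-near and other features, which moves it by 0.13, 637 were higher and 416 lower. The split also depends on the minimum of calls, with 536 higher and 811 lower at 10 calls, and 536 and 434 at 100. Without telogen tag number 10 the count of higher genes was 355, and without anagen tag number 5 that of lower genes was 300. The depth gap bounds what can be called, since a gene or feature with no telogen call needs 151 anagen calls to reach 2-fold at the floor, a number that 4363 of the tested genes had.

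By the lower end of its interval, the gene farthest to the anagen side was Oca2, which codes for a melanosome membrane protein that controls melanosome pH (chr 7, 56239593 to 56536518). It had 987 calls in 355 of 683 anagen nuclei, from 140 to 487 CPM over tag numbers, and none in telogen. It was 13.1-fold higher at the floor of 3 telogen calls (lower end 10.6), against 1.86-fold in other nuclei. Only 6.69% of its anagen calls lay near the gene ends. Its most open feature held 55 calls, so the signal was spread over the gene body. Trpm1 (chr 7, 64153835 to 64269772) had 1921 anagen calls, 441 to 895 CPM over tag numbers, and 12 telogen calls, 106 to 180 CPM over tag numbers 8 to 10. It was 6.36-fold higher (3.63 to 12.3), with no overlap between tag numbers of at least 9 nuclei, against 1.74-fold in other nuclei. The potassium-dependent sodium and calcium exchanger gene Slc24a4 (chr 12, 102128727 to 102267133) had 815 and 5 calls and was 6.48-fold higher (2.76 to 20.0). It varied more between tag numbers, from 73.6 to 517 CPM in anagen and from 0 to 120 in telogen, so that its tag numbers overlapped, and it was 2.32-fold higher in other nuclei.

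The other 9 of the 12 highest genes are not pigment genes by name. Tuft1 (308 against 0 calls) and Btbd10 (287 against 0) were 4.08-fold and 3.80-fold higher at the floor, with lower ends of 3.30 and 3.07. In other nuclei both went the other way, at 0.54 and 0.76. Proser2 (482 against 1 call) had a ratio of 19.2 (3.42 to 758) and Gtf2ird1, which codes for a transcription factor, of 17.8 (3.18 to 705, 448 against 1 call). Scrn1 was 9.63-fold higher (3.28 to 46.8), Arhgap32 8.43-fold (2.87 to 41.0) and Nsmce2, a subunit of the SMC5/6 genome stability complex, 6.98-fold (3.38 to 17.4). Dock1, which codes for an activator of the GTPase RAC, was 6.57-fold higher (2.80 to 20.3) and St7 5.57-fold (2.82 to 12.9). In other nuclei these 7 genes lay between 1.15 and 1.59. In 11 of the 12 highest genes the most open feature held at most 1 telogen call and at most 99 anagen calls, so these genes were called on the sum of many features; the exception was Trpm1, whose top feature held 160.

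The 12 genes farthest to the telogen side included a collagen, a collagen hydroxylase, adhesion genes and the early response gene Atf3. Ldb2, which codes for a LIM-domain binding cofactor (chr 5, 44435955 to 44799759), stood at 75.3 CPM in anagen and 401 in telogen, a ratio of 0.19 (0.13 to 0.28). Its anagen tag numbers (60.1 to 163) all lay below its telogen tag numbers (212 to 480). The acyl-CoA thioesterase gene Acot11 had a ratio of 0.15 (0.08 to 0.28), the collagen gene Col27a1 0.16 (0.09 to 0.30), Tbx15, a T-box factor of the dermis, 0.17 (0.10 to 0.30) and the syndecan gene Sdc4 0.17 (0.09 to 0.32). Mbp, myelin basic protein, stood at 0.19 (0.11 to 0.33), P3h2, a collagen prolyl hydroxylase, at 0.20 (0.12 to 0.34), the focal adhesion gene Tns1 at 0.21 (0.14 to 0.34) and the transporter genes Slco3a1 and Abcg1 at 0.20 and 0.17. The last 2 of the 12 were Nrarp, a feedback inhibitor of Notch signalling, at 0.18 (0.10 to 0.35), and Atf3. In other nuclei Tbx15 (2.45), Col27a1 (1.94), Tns1 (1.53), Ldb2 (1.50) and Slco3a1 (1.37) had ratios above 1, and the other 7 genes lay between 0.53 and 0.97. Fibroblast markers, whose sums are given above, were also lower in anagen in the selected nuclei, at 116 CPM against 223 in telogen (ratio 0.52, 0.33 to 0.87). That sum rests on 20 telogen calls, and its tag numbers overlapped. Of the other marker lists, the endothelial one stood at 1.03 and the rest lay between 0.54 (T cell) and 0.92 (pericyte and smooth muscle), all with intervals that took in 1. The part of such nuclei in the lower genes was not tested.

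**Figure D3:**
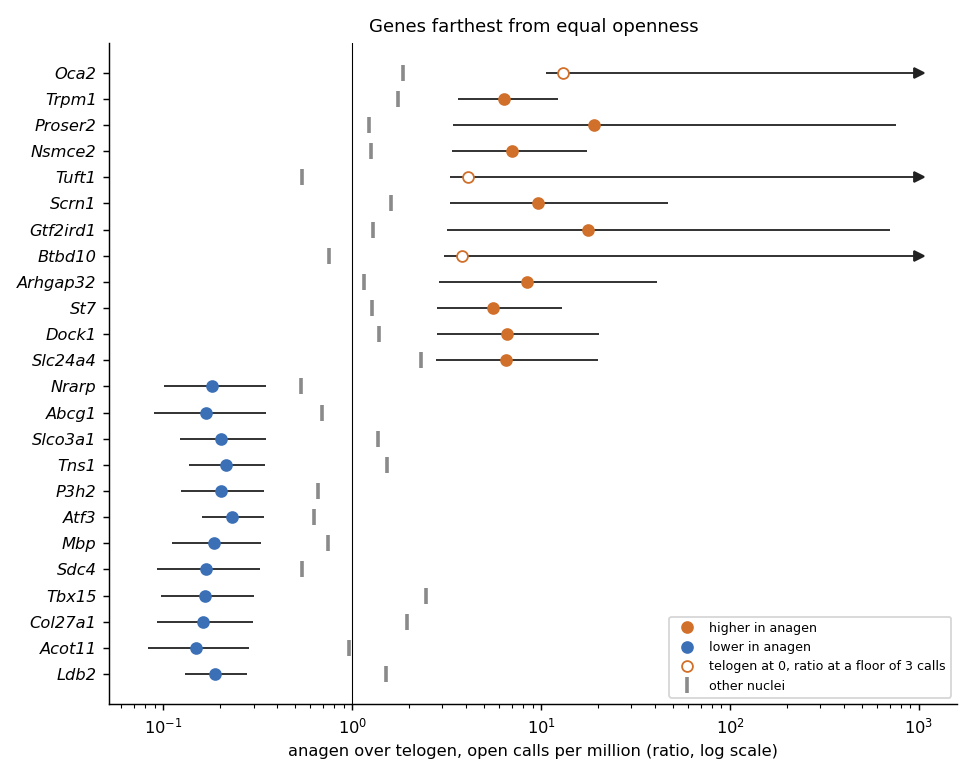
Ratio of open-call CPM, anagen over telogen (log axis), for the 12 highest and 12 lowest genes outside the marker list, with 95% counting intervals; open circles had no telogen call and stand at the floor of 3 calls, and grey ticks are the other nuclei. Oca2 has the highest lower end (10.6), and for the lower genes Tbx15 and Col27a1 the ticks lie on the other side of 1.

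Of the 16 pigment and melanosome genes outside the selection, 5 were called higher in anagen and 0 lower, where 5.58% and 6.07% of all tested genes were. The median log2 ratio was 0.68, against 0.05 over all tested genes. Their sum was 4196 CPM in anagen and 2163 in telogen, a ratio of 1.94 (1.68 to 2.25), against 1.46 (1.40 to 1.54) in other nuclei. Beside Oca2, Trpm1 and Slc24a4, the melanosome exchanger gene Slc24a5 (244 against 0 calls) was 3.23-fold higher at the floor (lower end 2.61). The melanosome glycoprotein gene Gpnmb was 2.66-fold higher (1.13 to 8.25, 5 telogen calls). For Slc24a5 the other nuclei showed a ratio of 4.06. Dct itself had a ratio of 1.11 (0.85 to 1.46) and the lysosomal channel gene Tpcn2, the lowest of the list, of 0.88 (0.42 to 2.23), with Slc7a11 (0.88) and Cd63 (0.99) also below 1. By tag number the sum ran from 2721 to 4472 CPM in anagen and stood at 1709, 1592, 2939 and 2217 in telogen (tag numbers 1 to 7, 8, 9 and 10), so telogen tag number 9 lay above anagen tag number 7 and just below tag number 2 (2942). The median was 0.45 against telogen tag numbers 8 to 10 alone and 0.38 over gene ends alone.

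Dct differed along its length. The feature at its start (chr14:118052265-118052765) held 463 anagen and 39 telogen calls, 205 and 435 CPM, a ratio of 0.47 (0.34 to 0.67); it was open in 67.8% of anagen and 51.3% of telogen nuclei, so the share of nuclei and the level in CPM go in opposite directions and no order is read from them. The next feature upstream, 733 bases from the start, had a ratio of 0.96 (0.50 to 2.13), and the one at 1271 bases of 2.26 (0.61 to 18.9). The feature at 2018 bases (chr14:118054264-118054764), 194 against 2 calls, was 3.86-fold higher (1.05 to 32.1), and the one at 2781 bases, 96 against 1 call, had a ratio of 3.82 (0.67 to 152). In other nuclei the start feature had a ratio of 1.90 and the one at 2018 bases of 3.15. Of the 60 telogen calls of Dct, the start feature held 39 and its neighbour 9. This stretch was looked at after its values were seen. The transgene of the sort also holds a Dct promoter, of an extent not given, and its part in these values was not tested.

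Among 16 lineage regulators 6 were called higher in anagen and 1 lower, where 5.58% and 6.07% of all tested genes were. The median log2 ratio was 0.75 and the sum had a ratio of 1.57 (1.40 to 1.78), against 1.10 (1.06 to 1.14) in other nuclei. Among receptors, the melanocortin receptor gene Mc1r had 317 anagen calls and 1 telogen call, a ratio of 12.6 (2.24 to 499); 72.3% of its calls lay in features shared with another gene. Met, the receptor of hepatocyte growth factor, was 4.09-fold higher (2.21 to 8.55), at 456 and 112 CPM, and Ednrb 3.06-fold (1.18 to 11.3). Among transcription factors, Lef1, which carries Wnt signals to DNA, was 3.50-fold higher (1.35 to 12.9), Irf4, which acts on tyrosinase, 3.13-fold (1.21 to 11.6) and Sox5 2.99-fold (2.12 to 4.35). Sox5 had the most calls of the list, at 1100.3 CPM in anagen (837 to 1178 over tag numbers) and 368 in telogen (212 to 548), with no overlap. Tfap2b, an AP-2 factor, was called lower, at 43.0 and 123 CPM, a ratio of 0.35 (0.19 to 0.73). A slightly larger share of anagen than of telogen nuclei had a Tfap2b call, so no order is read for this gene. Its log2 ratio turned to 0.62 when the marker share had to be 3 times the pooled one, from 38 anagen calls and 1 telogen call. Ets1 had a ratio of 0.74 (0.56 to 0.98), and Erbb3 (0.67), Foxd3 (0.69), Snai2 (0.91) and Tfap2a (0.96) lay below 1 as well, none of them called. Sox6 and the survival gene Bcl2 had ratios of 1.42 (1.08 to 1.90) and 1.44 (0.97 to 2.24). By tag number the sum of the list ran from 3977 to 5116 CPM in anagen and from 2264 to 3481 in telogen.

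Early response genes, many of which code for transcription factors and which are induced within minutes of a stimulus and include the AP-1 subunits, numbered 24. Of these, 11 were called lower in anagen and 0 higher, where 6.07% and 5.58% of all tested genes were, and the median log2 ratio was −0.84. The sum was 2841 CPM in anagen and 5274 in telogen, a ratio of 0.54 (0.49 to 0.59), against 0.85 (0.83 to 0.86) in other nuclei. Among AP-1 and related subunits, Atf3 had a ratio of 0.23 (0.16 to 0.34), Fos of 0.32 (0.22 to 0.49), Jund of 0.36 (0.26 to 0.51), Fosb of 0.46 (0.30 to 0.73) and Jun of 0.50 (0.36 to 0.71). For Atf3 the anagen tag numbers (67.6 to 186 CPM) lay below the telogen ones (360 to 530), and for Jund 123 to 265 lay below 424 to 480. For Jun the ranges of 101 to 372 and 334 to 780 overlapped. Among zinc finger factors, Klf2 stood at 0.21 (0.12 to 0.38), Egr1 at 0.40 (0.27 to 0.62) and Klf6 at 0.50 (0.35 to 0.73), and among nuclear receptors Nr4a2 at 0.46 (0.30 to 0.75) and Nr4a1 at 0.48 (0.34 to 0.70). The antiproliferative gene Btg2 stood at 0.39 (0.23 to 0.72). By share of nuclei with a call, Atf3 (22.4% in anagen, 32.9% in telogen), Jund (35.0%, 40.8%), Klf2 (12.3%, 18.4%) and Fos (28.1%, 28.9%) were also lower in anagen. The other called genes had a call in a larger share of the deeper anagen nuclei, such as Nr4a1 (34.1%, 23.7%) and Btg2 (19.6%, 18.4%). For these the share of nuclei and the level in CPM go in opposite directions, and no order is read from them. Junb (0.65, 0.44 to 1.00) and Nr4a3 (0.83, 0.56 to 1.28) were not called, nor was Egr2, the highest of the list, at 2.52 (0.68 to 21.1). Klf4 (1.09), Dusp1 and Fosl1 (both 1.03) and Myc (1.01) were also above 1 and not called. Features shared with another gene held 42.2% of the calls of Jund, 31.6% of those of Junb and 31.7% of those of Nr4a2.

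At least 66.4% of the anagen calls of Jund, Egr1, Klf2, Btg2, Jun, Atf3, Fos and Klf6 lay near gene ends, the class of features that had a smaller share in anagen. Fosb, Nr4a2 and Nr4a1, also called lower, had 37.4%, 30.9% and 17.7% of their calls there. Anagen tag numbers 7 and 8, with gene-end shares of 43.1% and 41.7%, had list sums of 4419 and 3943 CPM. The other 5 anagen tag numbers, with shares of 33.9% to 39.7%, had 2662 to 3282. Telogen stood at 4528, 7109, 5698 and 5078, from 98, 67, 95 and 213 calls, with shares of 39.8%, 42.7%, 44.8% and 45.1%. With a scale of its own for gene-near and other features the list median was −0.65, and with housekeeping gene ends as the total −0.64. The part of the class shift in the list was not tested beyond these scales.

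**Figure D4:**
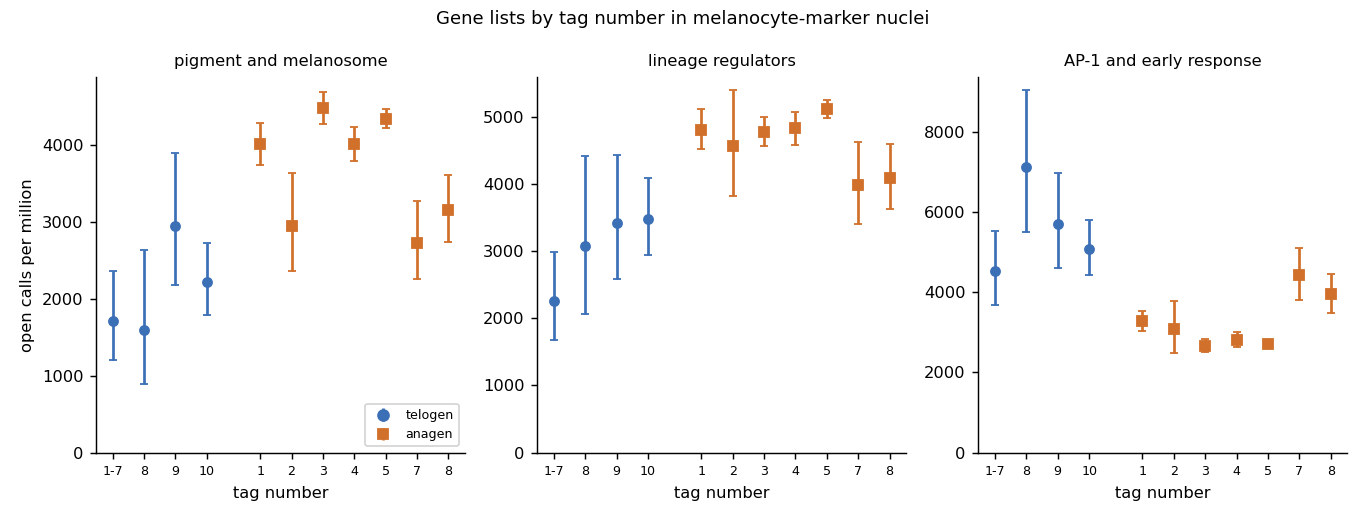
Open-call CPM summed over 3 gene lists, for each tag number of the selected telogen (circles) and anagen (squares) nuclei, with exact Poisson 95% intervals. Early response sums run from 4528 to 7109 in telogen and from 2662 to 4419 in anagen, while pigment sums overlap between telogen tag number 9 and anagen tag number 7.

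Wnt signalling genes had 5 of 16 tested members higher and 1 lower (5.58% and 6.07% of all tested genes), with a median of 0.51 and a summed ratio of 1.44 (1.22 to 1.72), against 1.17 in other nuclei. The 5 were Lef1 and Tcf7, which bring β-catenin to DNA (Tcf7 2.91, 1.12 to 10.8), the co-receptor gene Lrp6 (2.41, 1.21 to 5.61), and 2 inhibitors of the pathway, Znrf3, a ubiquitin ligase that removes Frizzled receptors (4.12, 1.88 to 11.3), and Nkd1 (2.78, 1.26 to 7.61). Tcf7l1, a TCF that acts mostly as a repressor, was called lower, at 0.41 (0.20 to 0.92), against 1.71 in other nuclei. A larger share of anagen than of telogen nuclei had a Tcf7l1 call, so no order is read for this gene. The receptor gene Lgr4 and Dkk3 were not called, at 1.21 (0.77 to 2.03) and 1.38 (0.83 to 2.47). By tag number the sum was 2029 to 2317 CPM in anagen and 1200 to 2546 in telogen, where tag number 8 lay above all anagen values.

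Melanosome biogenesis and transport genes had 2 of 18 tested members higher and 0 lower, against 5.58% and 6.07% of all tested genes, with a median of 0.30 and a summed ratio of 1.46 (1.24 to 1.73), against 1.13 in other nuclei. Hps3, a subunit of the BLOC-2 complex that sorts melanosome cargo, was 3.79-fold higher (1.28 to 18.5). Bloc1s5 of the BLOC-1 complex had 163 anagen calls and 1 telogen call, a ratio of 6.48 (1.15 to 257). Over gene ends alone it turned to −4.65 on the log2 scale, from 1 anagen call and 1 telogen call, since 0.61% of its anagen calls lay there. The myosin motor gene Myo5a, which carries melanosomes along actin, had a ratio of 1.89 (1.24 to 3.03), Mlph, its linker, of 1.69 (0.93 to 3.40) and Sytl2 of 1.48 (0.97 to 2.37). The list's tag numbers did not overlap, at 2310 to 2638 CPM in anagen and 1061 to 1931 in telogen. The median over gene ends alone was −0.21.

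Genes of cAMP signalling, the pathway below the melanocortin receptor, had 2 of 18 higher and 1 lower, which is close to the 5.58% and 6.07% of all tested genes, with a median of 0.28. The 2 were phosphodiesterase genes, which break down cAMP: Pde8a at 4.49 (1.74 to 16.5) and Pde3a at 2.59 (1.51 to 4.89), the latter with 2.44 in other nuclei. Pde4d had the most calls of the list, 1249 and 1003.5 CPM, and was not called at 1.24 (1.01 to 1.55). The coactivator gene Ppargc1a was called lower, at 0.49 (0.33 to 0.76). It had a call in a larger share of anagen than of telogen nuclei, so no order is read for this gene. The median fell to −0.42 over gene ends alone.

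Genes of stem cell maintenance had 0 of 13 higher and 1 lower, near the shares of all tested genes (5.58% and 6.07%), with a median of −0.35. Nfix, a nuclear factor I gene, was lower at 0.36 (0.24 to 0.55), against 1.23 in other nuclei, and its relative Nfia stood at 0.71 (0.54 to 0.96), against 1.27. Notch1 had a ratio of 1.01 (0.68 to 1.57) and the TGF-β receptor gene Tgfbr2 of 2.03 (0.86 to 6.30). This median turned to 0.01 when second copies of barcodes were kept.

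The remaining lists are given by their counts, beside the same 5.58% higher and 6.07% lower of all tested genes. Of 21 migration, adhesion and matrix genes, 3 were higher. They were the laminin gene Lama1 (248 against 0 calls, 3.29-fold at the floor, lower end 2.65) and the integrin genes Itgb3 (2.64, 1.12 to 8.18) and Itgav (2.48, 1.13 to 6.81). In the same list 4 were lower, the protocadherin gene Pcdh9 (0.21, 0.12 to 0.42), the basement membrane collagen genes Col4a1 (0.26, 0.14 to 0.51) and Col4a2 (0.38, 0.17 to 0.98) and the tetraspanin gene Cd9 (0.47, 0.28 to 0.84). Both collagen genes were higher in the other nuclei, at 1.81 and 1.75. Of 19 cell cycle genes, Mcm7 alone was called, lower at 0.40 (0.22 to 0.83), and 98.4% of its calls lay in features shared with another gene. With at least 5 marker features Mcm7 turned to 0.95 on the log2 scale, from 102 anagen calls and 1 telogen call. Of 6 Hedgehog genes, Gli3 alone was called, higher at 2.38 (1.59 to 3.72), with 2.01 in other nuclei. It turned to −0.92 on the log2 scale over gene ends. Of 12 interferon and antigen presentation genes none was called by the 2-fold rule; their sum had a ratio of 0.76 (0.59 to 0.99), against 0.83 in other nuclei, and their median of −0.52 turned to 0.30 without telogen tag number 10, with H2-K1 lowest at 0.44 (0.18 to 1.40) and Tapbp highest at 1.42 (0.54 to 5.29). Of 13 housekeeping genes, Actb was lower at 0.49 (0.33 to 0.75), Gapdh had a ratio of 1.01 (0.61 to 1.78) and the median was 0.01.

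**Figure D5:**
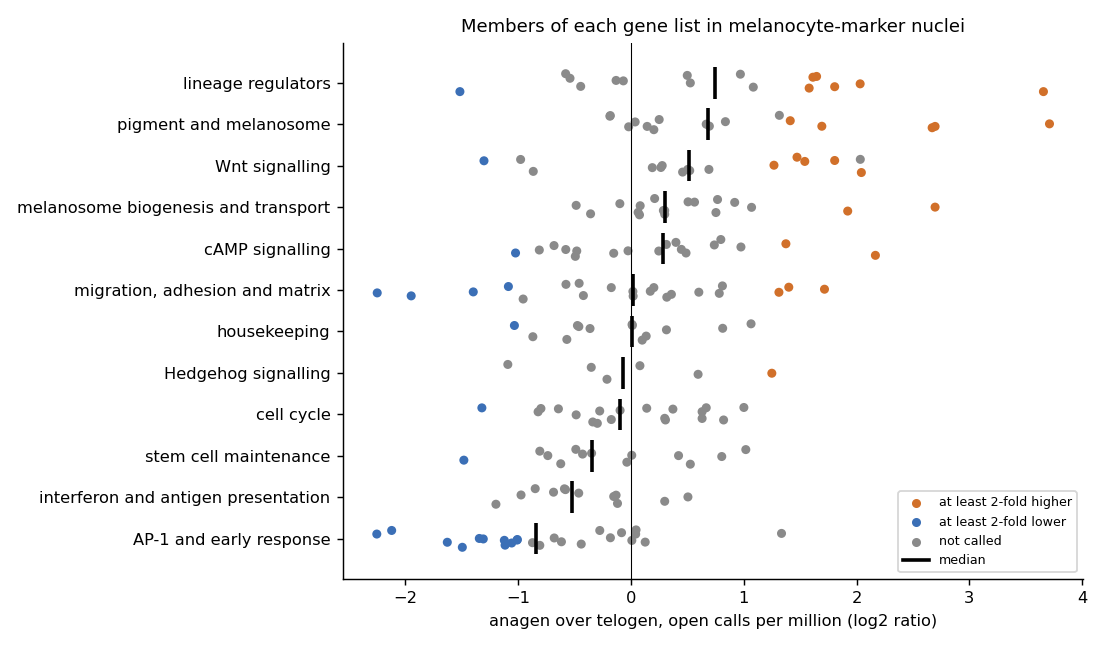
Log2 ratio of open-call CPM, anagen over telogen, of each tested member of 12 gene lists, genes without a telogen call at the floor of 3 calls, with list medians as black bars. Medians run from −0.84 (early response genes) to 0.75 (lineage regulators); orange and blue points passed the 2-fold rule with an interval off 1.

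Single 500-bp features could be called mainly on the telogen side. Of 20253 features with at least 30 calls, 2 were called higher in anagen (0.00988%) and 1089 lower (5.38%). Within 1 kb of a gene end 0 of 9597 were higher (0.00%) and 695 lower (7.24%), and farther away 2 of 10656 were higher (0.0188%) and 394 lower (3.70%). This imbalance goes with the depth gap: a feature with no telogen call needs 151 anagen calls to be called, and 135 features at gene ends and 26 farther away had as many. No call was found in telogen in 4949 of the tested features. Without telogen tag number 10 the lower features numbered 375 at gene ends and 186 farther away, and without anagen tag number 5 they numbered 387 and 177.

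Both features called higher lay in or next to pigment genes. The nuclei were chosen by pigment-cell genes and only features with many anagen calls could be called, so no support is drawn from this. Their telogen calls, 1 and 2, all came from tag number 10. Neither was called against telogen tag numbers 8 to 10 alone, without telogen tag number 9 or without telogen tag number 10. One lies in Trpm1 (chr7:64185264-64185764), with 160 anagen calls over all 8 anagen tag numbers and 1 telogen call, a ratio of 6.36 (1.13 to 253). The other is the feature 2018 bases upstream of Dct described above, which was singled out after its values were seen. Features next in rank away from gene ends had no telogen call and did not reach 2-fold at the floor. They lay in Chsy3, a chondroitin synthase gene (115 anagen calls), in the kinesin gene Kif26b (102), 6753 bp from Lyar (chr5:38241059-38241559, 112), 3087 bp from Gm46608 (chr17:10326498-10326998, 107) and 172069 bp from the adhesion gene Cadm1 (chr9:47357601-47358101, 102). The features in Chsy3 and Kif26b stood at 7.33 and 5.64 CPM in other anagen nuclei, against 51.0 and 45.2 in the selected ones. At gene ends the features at Tia1, Adpgk, Gpnmb, Fzd5 and Ankrd9, among the highest there, had 89 to 100 anagen calls and no telogen call. Of these, those at Gpnmb and the Wnt receptor gene Fzd5 had ratios of 2.06 and 1.04 in other nuclei and the other 3 had ratios of 0.76 to 0.87.

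Features lower in anagen at gene ends included signalling and early response genes. At the start of Socs3, a feedback inhibitor of cytokine signalling (chr11:117969047-117969547), 41 of 683 anagen and 11 of 76 telogen nuclei had a call, a ratio of 0.15 (0.07 to 0.32), and the telogen calls came from tag numbers 4, 8, 9 and 10. The repressor gene Cic (chr7:25267920-25268420) had 152 and 25 calls and a ratio of 0.24 (0.16 to 0.39). The features at Rps19, Rassf2 and Nrarp and the one shared by Camta2 and Inca1 lay between 0.14 and 0.16. In other nuclei Socs3 and Cic had ratios of 1.01 and 0.99 and Rassf2 of 2.28. The most open feature of several early response genes, taken by anagen calls and each within 1 kb of a gene end, was lower too: Jund with 159 and 20 calls (0.32, 0.20 to 0.53), Jun with 152 and 19 (0.32, 0.20 to 0.54), Atf3 with 107 and 18 (0.24, 0.14 to 0.41) and Klf2 with 57 and 11 (0.21, 0.11 to 0.44). Others were not called: that of Fos held 97 and 7 calls (0.55, 0.26 to 1.41) and that of Egr1 92 and 6 (0.61, 0.27 to 1.70). Those of Fosl2 (134 and 6), Dusp1 (120 and 6) and Klf4 (67 and 2) lay closer to the 25.2-fold ratio of all calls. Another gene-end feature of Egr1 (chr18:34860272-34860772), with 75 and 9 calls, was called lower, at 0.33 (0.17 to 0.75). In other nuclei the features of Jund, Jun, Atf3 and Klf2 had ratios of 0.87 to 1.04. Not every feature of a gene moved alike: next to the start feature of Jun, those at chr4:95052539-95053039 and chr4:95053042-95053542 had ratios of 0.95 (0.31 to 4.73) and 1.27 (0.42 to 6.28), from 3 telogen calls each.

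Away from gene ends the lowest features had few calls in either condition. A feature shared by Cmss1 and Filip1l (chr16:57496535-57497035) had 25 anagen and 10 telogen calls, a ratio of 0.10 (0.05 to 0.23), and one in Anks1b (chr10:90494820-90495320) 31 and 11 calls, 0.11 (0.05 to 0.25). A feature 2263 bp from Wdyhv1 (chr15:58138572-58139072) had 34 and 11 calls, 0.12 (0.06 to 0.27). Those in the caveola gene Cavin2, 7256 bp from Pygl and 22839 bp from Csmd1 had 26 to 32 anagen and 8 or 9 telogen calls and ratios of 0.13 to 0.14. In other nuclei these 6 features lay between 0.73 and 2.21.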

How the data were processed

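Whole-number counts per 500-bp feature and nucleus were deposited by the authors, 1 matrix per condition, over 315694 features. Bowtie2, SAMtools, MACS2 and mm10 (GRCm38) are named in the submitters' processing notes, without versions. The sources used here do not say how reads were counted, whether cut sites were shifted or how doublets were treated, and no doublet caller was run. Of the entries above 0, 59.3% held the value 2, so each was taken as 1 open call. Barcodes listed under more than 1 tag were counted once per condition, at their deepest copy (543 telogen and 1721 anagen copies dropped). "All nuclei pooled" meant telogen and anagen together (0.121% of open features in 367 marker features). Gene positions came from RefSeq (GRCm38.p6): 317 of 318 list genes matched and 18015 genes had a feature. With 1 pool per condition, conditions were compared without tests. Intervals are exact conditional binomial for ratios and Clopper-Pearson for shares. Those for ratios were run on simulated Poisson counts, the counting error that they assume, with changed ratios set only in genes with more telogen calls. That run says nothing of spread between mice or of changed genes with few telogen calls. The minimum was 60 calls for genes and 30 for features. Named genes were, by the end of the interval nearest to 1, the 12 highest and lowest, the 6 highest and lowest features of each class and, per list, the 3 members with most calls and the highest and lowest by ratio; other called members of a list were named because they were called. One feature that the rule names is not reported here. Members, lists and rules were chosen with earlier results of these data known. Software was scipy 1.17.1, numpy 2.4.6, matplotlib 3.10.9 and pandas 2.3.3 under Python 3.11.15. Alternatives are in the closing section.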

Additional observations from a re-analysis of the deposited data

How the results depend on the processing

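Limits first. Telogen rests on 76 nuclei and 89689 calls, and settings that keep fewer nuclei or calls test fewer genes (2161 when thinned, 2488 with shallow anagen nuclei, 4174 at 3 times the marker share, against 9601). Intervals cover counting error and not mice, of which each condition is 1 pool. No paired analysis was possible because each condition is a single pool and no replicate number is shared. In every setting that could give them, the intragenic share was higher in anagen, the early response median was below 0 and the pigment and lineage medians were above 0. Shares do not depend on the scale or the minimum of calls and were not computed again there, and features were not for gene ends alone. Of 2304 values for the 75 named genes, 2215 moved little, 85 moved more and 4 changed sign: Tfap2b (0.62 on the log2 scale at 3 times the marker share), Mcm7 (0.95 at 5 or more marker features), Bloc1s5 (−4.65) and Gli3 (−0.92), both over gene ends alone. These 4 values rest on 1 telogen call each for Tfap2b, Mcm7 and Bloc1s5 and on 12 for Gli3, and that of Bloc1s5 on 1 anagen call. Unless stated otherwise below, the cause of a change was not tested.

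With second copies kept there were 888 genes higher and 987 lower, 4 gene-end features higher and 1529 lower, and 21 farther features higher and 1126 lower. Shares at gene ends were then 34.7% (anagen) and 44.4% (telogen), inside genes 46.1% (anagen) and beyond genes 19.2% and 22.3%, with list medians of 0.10 (cAMP), 0.0103 (stem cell) and −0.16 (migration). A marker share of 3 times the pooled one, which leaves 300 anagen and 38 telogen nuclei, gave 198 genes higher and 200 lower, 160 gene-end features lower, 0 farther features higher and 48 lower. Its shares were 35.1% and 42.3% at gene ends, 46.0% inside genes (anagen) and 18.9% and 23.9% beyond, and its medians 0.96 (lineage), 1.30 (Wnt), 0.0347 (cAMP), 0.0146 (stem cell), 0.76 (Hedgehog), 0.47 (migration) and 0.30 (housekeeping). At 5 or more marker features (503 and 24 nuclei) there were 208 genes higher, 357 gene-end features lower, 0 farther features higher and 204 lower. Shares were 34.9% at gene ends and 46.3% inside genes (anagen) and 18.8% and 22.6% beyond, and medians 0.62 (melanosome biogenesis), 0.79 (Wnt), 0.0191 (cAMP), −0.14 (stem cell) and −0.16 (migration). Taking the pooled share within each condition (574 and 95 nuclei) gave 828 genes and 9 gene-end features higher, 79 farther features higher and 251 lower. Shares were 42.0% at gene ends (telogen), 46.0% and 34.3% inside genes and 18.9% and 23.6% beyond, and medians 0.64 (melanosome biogenesis) and 0.21 (migration).

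Deposited counts, which mostly come in pairs, gave 1052 genes higher and 1054 lower, 51 gene-end features higher and 1515 lower, and 121 farther features higher and 1331 lower. Shares were 36.1% and 44.5%, 45.2% and 32.9%, and 18.7% and 22.6%, and the stem cell median −0.15. On housekeeping gene ends there were 822 genes higher and 324 lower and 423 gene-end features lower, with medians of 0.95 (lineage), −0.64 (early response), 0.48 (cAMP), −0.15 (stem cell) and 0.22 (migration). On separate scales for gene-near and other features, 2 gene-end features were higher and 309 lower and 0 farther ones higher, with medians of −0.65 (early response) and 0.21 (cell cycle). Thinned to 800 open features there were 219 genes higher and 100 lower, 93 gene-end features lower, 0 farther features higher and 26 lower. Anagen shares were 36.1%, 44.3% and 19.5%, and medians 1.11 (lineage), −0.69 (early response), 1.33 (Wnt), 0.46 (cAMP), −0.12 (stem cell), 0.55 (Hedgehog) and 0.38 (migration). Leaving out nuclei above 3 times the median depth gave 35.6% and 44.1% at gene ends, 44.9% and 33.1% inside genes, 19.5% beyond (anagen) and a Hedgehog median of 0.57. A minimum of 10 calls gave 803 farther features lower and a stem cell median of −0.0126. A minimum of 100 gave 307 gene-end and 74 farther features lower and medians of 0.97 (lineage) and 0.60 (Hedgehog). With 5 kb as gene-near the shares were 49.2% and 55.8%, 34.4% and 23.8%, and 16.3% and 20.5%. Over gene ends alone 15 genes were higher, and medians were 0.38 (pigment), −0.21 (melanosome biogenesis), −1.12 (early response), −0.42 (cAMP), 0.20 (cell cycle), −0.71 (Hedgehog), −0.48 (migration) and −0.30 (housekeeping).

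A further pair of settings was added after seeing the data. Against telogen tag numbers 8 to 10 alone 0 farther features were higher, telogen shares were 44.7% at gene ends and 21.8% beyond genes, and medians 0.45 (pigment), 0.0948 (cAMP), −0.14 (stem cell), −0.18 (migration) and −0.26 (housekeeping). With anagen nuclei of at most 2500 open features 250 genes were higher and 75 lower, 2 gene-end features higher and 106 lower and 39 farther features lower. Anagen shares were 37.3%, 42.3% and 20.4%, and medians 0.70 (melanosome biogenesis), 1.00 (lineage) and 0.33 (Hedgehog). The interferon median could not be had there or when thinned, since no member was tested in either.

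Leaving out each tag number in turn gave 355 to 543 genes higher and 300 to 593 lower, 375 to 726 gene-end features lower (0 higher throughout), and 0 to 2 farther features higher and 177 to 434 lower. Shares ran from 34.9% to 36.6% (anagen) and 42.1% to 44.0% (telogen) at gene ends, 44.7% to 46.0% and 33.2% to 33.7% inside genes, and 18.7% to 19.2% and 22.5% to 24.6% beyond. Medians ran from 0.55 to 0.72 (pigment), 0.28 to 0.60 (melanosome biogenesis), 0.70 to 1.13 (lineage), −0.91 to −0.76 (early response), −0.55 to 0.30 (interferon), 0.37 to 0.57 (Wnt), 0.23 to 0.34 (cAMP), −0.50 to −0.17 (stem cell), −0.28 to 0.09 (cell cycle), −0.13 to 0.66 (Hedgehog), −0.013 to 0.44 (migration) and −0.16 to 0.15 (housekeeping). The lowest counts came without telogen tag number 10 (355 genes higher, 375 gene-end features lower, median interferon 0.30) and without anagen tag number 5 (300 genes lower, 177 farther features lower).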
